A study of Oryza sativa with 48 samples.

Results

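The comparison set out here is that of wild-type (WT) rice roots after 1 h in salt with WT roots sampled before salt, in all 6 libraries that its rule takes, of 48 libraries in the series. The 1 h group is 3 root libraries of Kitaake plants, labelled WT, given 100 mM NaCl for 1 h, and the 0 h group is 3 root libraries of the same line with no treatment. Kitaake is a japonica rice cultivar. All plants had grown in hydroponics for 11 days, each library was made from 3 plants, and the members of the comparison are the samples alone, so no measured value chose them. In such bulk tissue, fewer cells of a type and less RNA per cell cannot be told apart. Of 35667 gene identifiers in the count table, 26195 had enough reads in the root libraries to be tested. The other libraries that enter below are those of the genotype aoc (roots at 0, 1, 6 and 72 h), of WT root at 6 and 72 h, and of the WT 2nd leaf at 0, 1, 6 and 72 h, with 3 libraries a group and the same 100 mM NaCl. The labels give aoc by name only, and the series title concerns jasmonate signalling. No plants without salt were sampled at 1 h, so salt, plant age and the hour of day cannot be told apart in this comparison.

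The root is the organ that meets salt in the medium first. Sodium chloride lowers the water potential around the root at once and then loads the tissue with sodium and chloride. In plants in general, the earliest responses pass through calcium and reactive oxygen signals, the hormone abscisic acid and, in many tissues, jasmonates, and they change the transcript levels of many genes. The files pair no gene names with the identifiers, and the reference table at hand, built on a different assembly, holds 1 of the 35667. Families and pathways, and the root and leaf marker genes, were therefore not analysed here, and identifiers stand without a name or a role. At most 2 per direction are printed for a comparison, except that all 3 called between WT and aoc are given. In such an identifier the digits after "Os" give the chromosome, and the number after "g" follows the order along it.

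The response after 1 h was broad and ran in both directions. In WT root, 4589 identifiers were higher at 1 h than at 0 h, which is 17.5% of those tested, and 4335 were lower, which is 16.5% (edgeR quasi-likelihood F test, Benjamini-Hochberg adjusted p under 0.05). Higher identifiers made up 51.4% of the calls. The sizes were less even than the counts. A rise of at least 2-fold was seen in 1923 called identifiers and a fall of that size in 1133. At 8-fold or more there were 358 rises against 56 falls, at 16-fold or more 177 against 19, and at 64-fold or more 53 against 0. The median log2 fold change was 0.83 among the higher identifiers and -0.66 among the lower ones, while over all tested identifiers it was -0.0287.

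**Figure D1:**
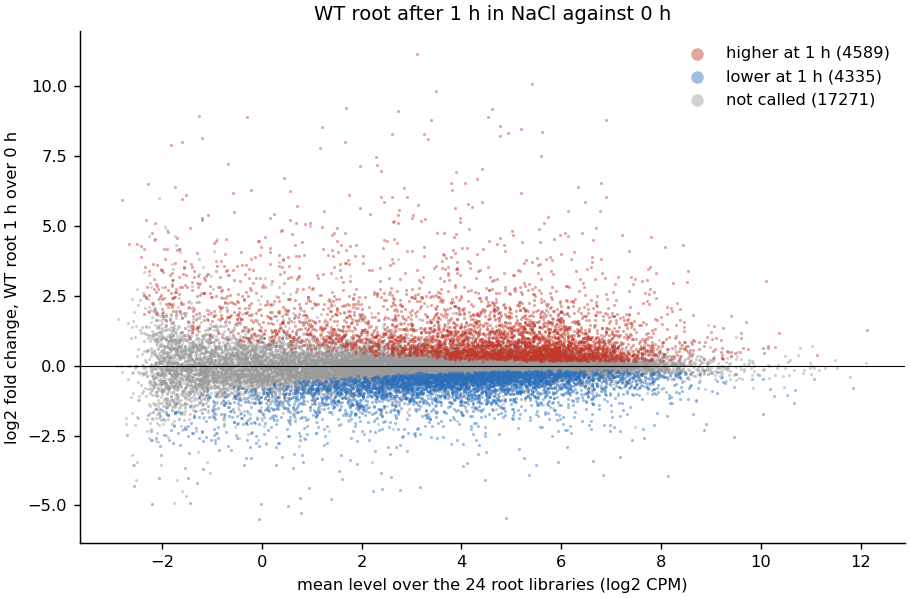
Each point is 1 of 26195 tested identifiers, with its mean level over the 24 root libraries in log2 CPM (counts scaled to the library total) on the x axis and the log2 fold change of WT root at 1 h over 0 h on the y axis. Called rises (4589, red) reach 11.13 on the log2 scale and called falls (4335, blue) reach -5.50.

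The 3 libraries of 1 h lay on 1 side of the 3 libraries of 0 h for nearly every called identifier. That was so for 4501 of the higher identifiers (98.1%) and for 4236 of the lower ones (97.7%). The calls were made on these same libraries, so this is not a separate result. Over all tested identifiers, all 3 libraries of 1 h were above all 3 of 0 h in 24.5% and under them in 25.6%. In a principal component analysis of the 6 libraries, the first component held 74.9% of the variance. The libraries of 1 h scored 61.6, 51.9 and 57.1 on it and those of 0 h -56.3, -59.1 and -55.2. The second component held 13% and followed the replicate number, with scores of 32.6, -3.23 and -30.4 for replicates 1, 2 and 3 of 1 h and of 24.5, 4.01 and -27.4 for those of 0 h.

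Counts per library were 31.6 M to 71.7 M at 1 h and 33.1 M to 33.8 M at 0 h. Replicate 3 of 1 h was the deep one, and thinning it to the median root total left 4552 higher and 4332 lower identifiers. Over the unscaled library totals, a floor of 3 counts stood at 0.0419 to 0.0949 CPM in the libraries of 1 h and at 0.0887 to 0.0905 CPM in those of 0 h. Between 21943 and 22048 identifiers reached 1 CPM at 1 h, against 21921 to 22009 at 0 h. The 10 most abundant identifiers took 2.90% to 3.47% of the counts at 1 h and 3.09% to 3.37% at 0 h.

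The identifiers called higher held 33.9%, 32.2% and 32.9% of all counts in the 3 libraries of 1 h, against 19.3%, 19.0% and 19.1% in those of 0 h. Those called lower held 11.3%, 11.7% and 11.2% at 1 h, against 19.9%, 20.1% and 19.5% at 0 h. The identifiers that rose at least 8-fold held 2.52%, 2.31% and 2.90% of the counts at 1 h and 0.192%, 0.199% and 0.221% at 0 h. These shares describe identifiers chosen on the same libraries.

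Abundant transcripts were called higher more often than scarce ones, while rises of at least 8-fold made up the largest share in the lowest class. Identifiers were classed by their mean over all 24 root libraries in CPM, which is not corrected for transcript length. At 100 CPM or more, 580 of 2229 were higher (26.0%) and 319 lower (14.3%). Between 10 and 100 CPM, 2756 of 12105 were higher (22.8%) and 2373 lower (19.6%). Between 1 and 10 CPM falls outnumbered rises, with 944 of 8411 higher (11.2%) and 1452 lower (17.3%). Under 1 CPM, 309 of 3450 were higher (8.96%) and 191 lower (5.54%). From the highest class to the lowest, rises of at least 8-fold numbered 25 of 2229, 116 of 12105, 122 of 8411 and 95 of 3450. Falls of that size numbered 3, 11, 26 and 16 in the same order, and their share was also largest in the lowest class.

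**Figure D2:**
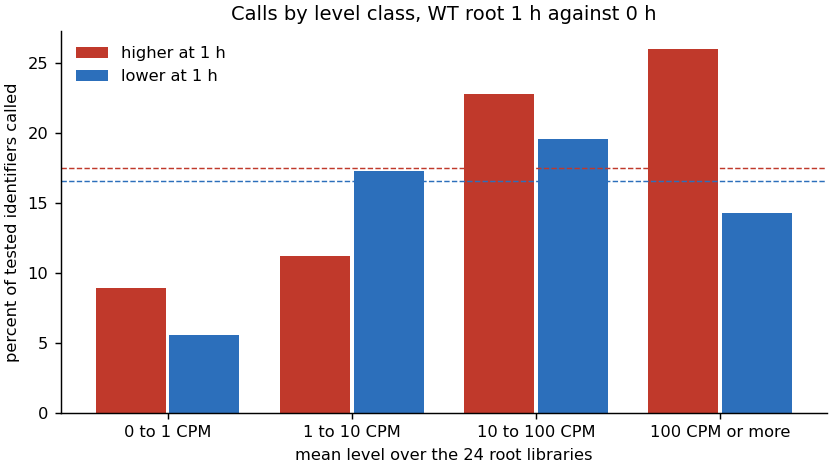
Bars give the percent of tested identifiers called higher (red) or lower (blue) in WT root at 1 h against 0 h, for 4 classes of mean level over the 24 root libraries. Dashed lines give the share over all tested identifiers, 17.5% higher and 16.5% lower, and rises outnumber falls in every class but that of 1 to 10 CPM.

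The precision behind these shares differs between the classes. The standard error of the log2 fold change was derived from the F statistic. Its median was 0.116 at 100 CPM or more and 0.127 between 10 and 100 CPM. It was 0.256 between 1 and 10 CPM and 0.561 under 1 CPM. The smallest rise that was called was 0.16, 0.15, 0.33 and 0.85 on the log2 scale in the same order. A 2-fold change of a scarce transcript was thus often not detectable in these libraries. Depth and the spread between libraries were not separated here.

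Some transcripts were next to absent before salt. Of the higher identifiers, 591 averaged under 1 CPM at 0 h, and 55 of these averaged at least 10 CPM at 1 h. No read at all was counted at 0 h for 14 of the higher identifiers. The reverse was rarer at the upper end. Of the lower identifiers, 406 averaged under 1 CPM at 1 h, but 2 of them had averaged at least 10 CPM at 0 h, and 2 had no read left at 1 h.

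In WT root at 6 h, 3406 of the tested identifiers were above 0 h (13%) and 3117 under it (11.9%), and 2407 were higher (9.19%) and 2548 lower (9.73%) at 72 h. These comparisons share the 0 h libraries with that of 1 h, and they are used below only for the course of single identifiers. The largest rise at 1 h belonged to Os05g0206000 on chromosome 5. It had 33.7, 24.6 and 33.0 CPM in the 3 libraries of 1 h, from 1084, 742 and 2154 reads, against 0.0288, 0 and 0 CPM at 0 h, from 1 read in all. Naming in this comparison required a mean of 5 CPM or more in the higher group and no overlap of the libraries. The lack of overlap is therefore not a separate result. Group against group this is a 3163-fold rise, whose 95% interval from read counting alone runs from 567 to 124974 (edgeR adjusted p = 5.62e-09). At 6 h it had 0.422, 0.514 and 1.09 CPM, still above 0 h (edgeR adjusted p = 0.000927), and at 72 h 0.0340, 0.102 and 0.0639 CPM, which did not pass the test against 0 h (edgeR adjusted p = 0.303). In aoc root it had 32.3, 48.7 and 27.6 CPM at 1 h, against 0.0300, 0.0732 and 0 CPM at 0 h, so the libraries of both genotypes overlapped at both hours. In the WT leaf it had 0.932, 1.30 and 0.142 CPM at 1 h and no read at 0 h, at least 28.0-fold more at 1 h against a floor of 3 counts over the group, and was not called there (edgeR adjusted p = 0.0568).

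The next largest rise was that of Os03g0723400 on chromosome 3. Its libraries of 1 h had 94.1, 115 and 219 CPM, against 0.0288, 0.0895 and 0.271 CPM at 0 h. Replicate 3 was the highest in both groups. The log2 fold change was 10.08 ± 1.42 (SE; edgeR adjusted p = 2.26e-05). It too was above 0 h at 6 h, with 9.64, 8.19 and 9.98 CPM (log2 fold change 6.13 ± 1.41 from 0 h; edgeR adjusted p = 0.00394). At 72 h it had 0.918, 0.307 and 1.25 CPM, a change from 0 h that did not pass the test (edgeR adjusted p = 0.315). In aoc root it had 137 ± 40.5 CPM at 1 h (SD, n = 3), against 0.0899, 0.0366 and 4.79 CPM at 0 h, and replicate 3 of aoc at 0 h stood apart from the other two.

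The largest fall under the same conditions was that of Os08g0113000 on chromosome 8. It had 1.65, 0.894 and 1.59 CPM at 1 h, against 54.8, 67.8 and 59.5 CPM at 0 h, with narrow groups far apart. The log2 fold change was -5.43 ± 0.42 (SE; edgeR adjusted p = 2.01e-08). The fall did not last: 34.9, 22.3 and 28.7 CPM were measured at 6 h and 89.7, 37.0 and 52.3 CPM at 72 h. The level at 6 h was above that at 1 h by 4.35 ± 0.41 on the log2 scale (edgeR adjusted p = 2.98e-07), and that at 72 h did not differ from 0 h beyond its error (-0.03 ± 0.34; edgeR adjusted p = 0.968). In aoc root the same identifier had 0.454, 0.727 and 1.62 CPM at 1 h, against 37.3, 30.9 and 32.4 CPM at 0 h.

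Os07g0124900 on chromosome 7 showed another course. It had 0.124, 0.132 and 0.475 CPM at 1 h, against 3.95, 20.8 and 1.56 CPM at 0 h, where replicate 2 was far above the other two. The log2 fold change was -5.01 ± 1.03 (SE; edgeR adjusted p = 0.000915), and without replicate 2 of 0 h it was -3.36 and still called (edgeR adjusted p = 0.0112). It stayed low, with 0.241, 0.0856 and 0.837 CPM at 6 h and 0.0340, 0.0256 and 0.0639 CPM at 72 h. In aoc root it had 0.0325, 0.242 and 0.103 CPM at 1 h and 0.150, 0.696 and 2.87 CPM at 0 h. No read of it was counted in WT leaf.

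**Figure D3:**
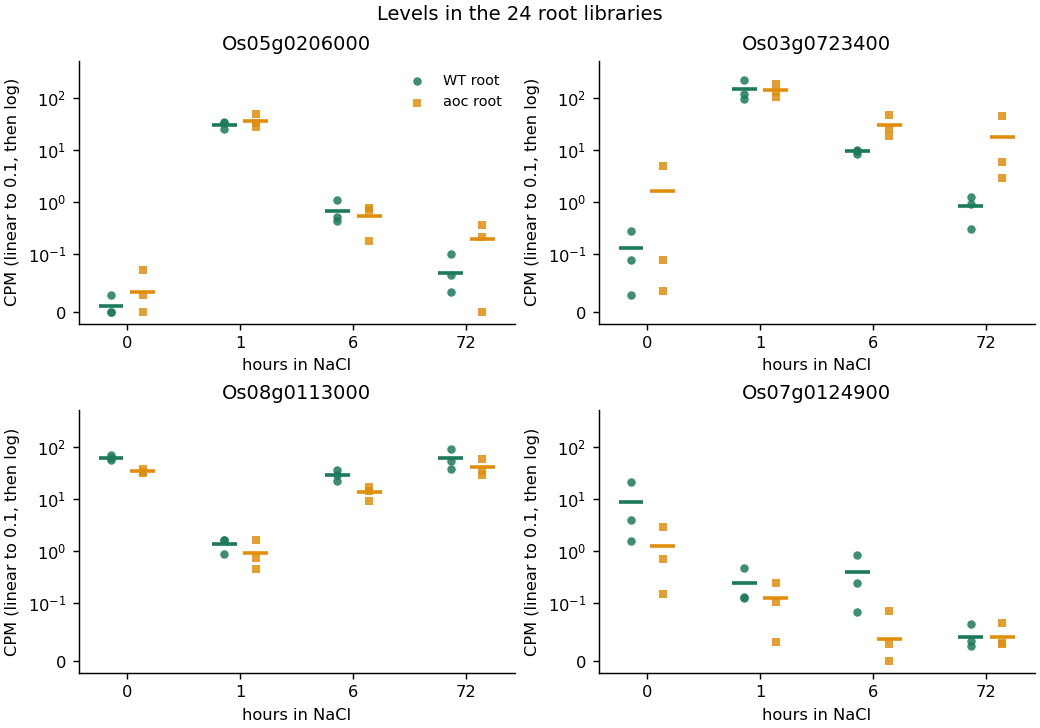
Points are the CPM of single root libraries at 0, 1, 6 and 72 h in NaCl and short lines are group means, WT (green circles) left of aoc (orange squares), on an axis that is linear up to 0.1 CPM and logarithmic above. Os05g0206000 and Os03g0723400 peak at 1 h in both genotypes, Os08g0113000 dips at 1 h and is back by 72 h, and Os07g0124900 remains low from 1 h on.

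The largest changes were next followed in aoc root, whose libraries are separate from the WT libraries that gave the fold changes. At 1 h, aoc root had 4746 identifiers higher than at its own 0 h (18.1% of those tested) and 4339 lower (16.6%). Of the 177 identifiers with a WT rise of 16-fold or more, 157 were called higher in aoc (88.7%). Their median log2 fold change was 5.11 in WT, where they were chosen, and 4.47 in aoc, with aoc quartiles of 3.58 and 5.36. Of the 181 that rose 8- to 16-fold in WT, 160 were called higher in aoc (88.4%), with a median of 3.42 in WT and 3.14 in aoc. Of the 401 that rose 4- to 8-fold, 335 were called higher in aoc (83.5%), and 1 was called lower. Both genotypes entered 1 fit and share its filter, scaling and estimate of the spread, so the aoc libraries had a part in the WT calls.

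The falls were followed in the same way. Of 19 identifiers that fell at least 16-fold in WT, 15 were called lower in aoc (78.9%), and the median log2 fold change was -4.48 in WT and -3.41 in aoc. Of 37 that fell 8- to 16-fold, 30 were called lower in aoc (81.1%), with medians of -3.40 and -2.64. Of 166 that fell 4- to 8-fold, 124 were called lower in aoc (74.7%), with medians of -2.36 and -1.95. Since WT values formed the classes, a smaller median in aoc is not by itself a difference between the genotypes.

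In aoc root the medians of these classes were farthest from 0 at 1 h. The aoc comparisons with 0 h share the aoc 0 h libraries and are set side by side. The class of 16-fold or larger rises had a median log2 fold change of 4.47 at 1 h, 2.75 at 6 h and 1.37 at 72 h in aoc. Of the 177, 134 were called higher in aoc at 6 h (75.7%, with 16.7% over all tested) and 45 at 72 h (25.4%, with 9.46% over all tested). The 19 that fell at least 16-fold in WT had medians of -3.41, -1.43 and -1.04 in aoc, and 13 of them were called lower at 6 h (68.4%, with 16.6% over all tested) and 6 at 72 h (31.6%, with 10.3%). Of the 759 identifiers at least 4-fold higher in WT at 1 h, 598 (78.8%) had their highest aoc mean at 1 h, 132 (17.4%) at 6 h, 22 (2.90%) at 72 h and 7 at 0 h. Over all tested identifiers, 28.3% had their highest aoc mean at 1 h. Of the 222 at least 4-fold lower in WT, 180 (81.1%) had their lowest aoc mean at 1 h, against 32.6% of all tested.

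**Figure D4:**
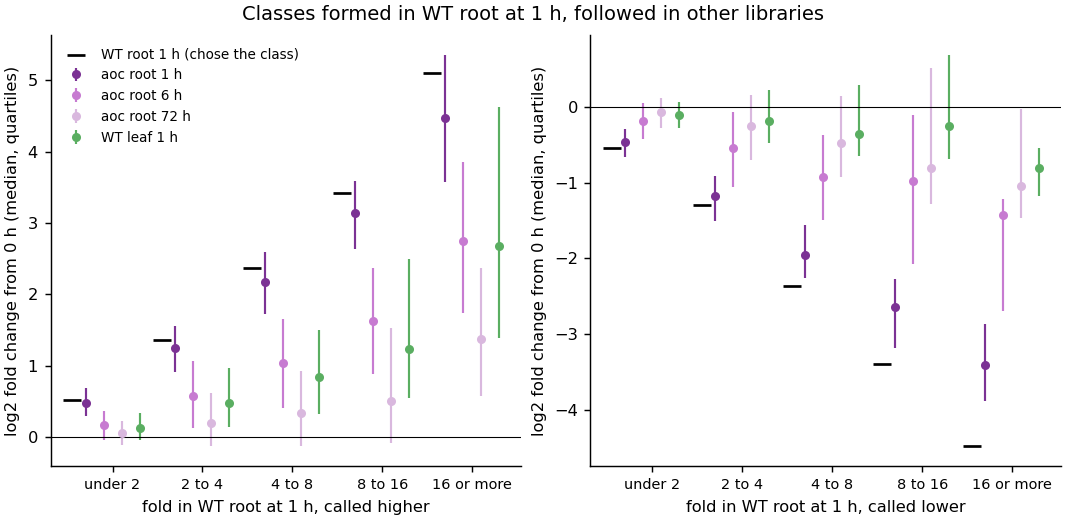
Points are medians and bars quartiles of the log2 fold change from 0 h for identifiers called higher (left) or lower (right) in WT root at 1 h, by the size of their fold there; black dashes give the WT median that formed each class. In aoc root the class of 16-fold or more has medians of 4.47, 2.75 and 1.37 at 1, 6 and 72 h for rises, and in WT leaf at 1 h 2.68.

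Whether the change at 1 h differed between WT and aoc roots was tested as the difference between the changes. It was more positive in WT for 3 of 26195 identifiers (0.0115%) and more negative for 0 (0% of those tested) by edgeR, with 1140 (4.35%) at an unadjusted p under 0.05. DESeq2 gave 25 more positive and 2 more negative. None of the 759 identifiers with a WT rise of 4-fold or more, and none of the 222 that fell at least 4-fold, was among the 3. A fitted difference of at least 2-fold stood in 198 of the 759 (26.1%), 53 of the 222 (23.9%) and 1333 of all tested (5.09%). None of these passed the test apart from the 3 called, which does not show that the genotypes respond alike.

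All 3 identifiers rose in WT at 1 h and did not rise in aoc. Os01g0834900 on chromosome 1 had 47.7, 28.9 and 37.2 CPM at 1 h in WT, against 15.7, 19.6 and 12.3 CPM at 0 h. In aoc it had 3.83, 2.67 and 2.52 CPM at 1 h, against 9.59, 11.5 and 7.25 CPM at 0 h. The WT libraries thus moved up and the aoc libraries down, with no overlap between hours in either genotype. The log2 difference between the changes was 2.90 ± 0.36 (SE; edgeR adjusted p = 0.00194). The rise in WT itself was 1.26 ± 0.25 on the log2 scale (edgeR adjusted p = 0.000562) and the fall in aoc -1.65 ± 0.26 (edgeR adjusted p = 7.81e-05).

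Os11g0482901 on chromosome 11 went the same way. It had 41.6, 31.6 and 33.0 CPM at 1 h in WT, against 15.1, 15.3 and 10.1 CPM at 0 h, and 2.47, 4.05 and 3.14 CPM at 1 h in aoc, against 5.46, 8.79 and 6.87 CPM at 0 h. The log2 difference was 2.52 ± 0.29 (SE; edgeR adjusted p = 0.00118). In WT it was still at 21.2, 21.7 and 29.8 CPM at 6 h, above its 0 h libraries, and in aoc at 3.47, 3.79 and 3.84 CPM, under its 0 h libraries.

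Os03g0431200 on chromosome 3, named because only 3 were called, rose in WT without a counterpart in aoc. It had 66.6, 41.3 and 40.4 CPM at 1 h in WT, against 18.6, 17.7 and 16.2 CPM at 0 h. In aoc it had 12.4, 14.9 and 12.9 CPM at 1 h and 13.7, 16.1 and 16.4 CPM at 0 h, a change that did not pass the test (log2 -0.20 ± 0.17; edgeR adjusted p = 0.393). The log2 difference between the changes was 1.70 ± 0.24 (SE; edgeR adjusted p = 0.00691). When only the 4 compared groups were fitted, all 3 calls were lost (adjusted p = 0.0656 for Os01g0834900, 0.0727 for Os11g0482901 and 0.114 for Os03g0431200), at log2 differences of 2.89, 2.50 and 1.68, and 1 other identifier was called.

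**Figure D5:**
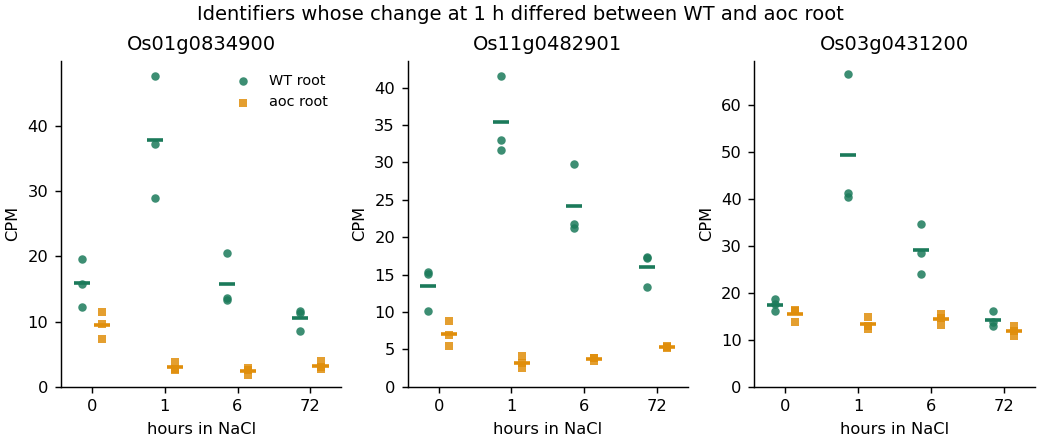
Points are the CPM of single root libraries at 0, 1, 6 and 72 h in NaCl on linear axes and lines are group means, WT (green circles) left of aoc (orange squares). In all 3 panels the 3 WT libraries of 1 h lie above all WT libraries of 0 h, and the highest aoc library of 1 h lies under the highest of 0 h.

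The WT libraries of the 2nd leaf took no part in forming the root classes. In WT leaf at 1 h, 199 identifiers were higher than at 0 h (0.818% of 24317 tested) and 112 lower (0.461%). Of the 142 identifiers tested in leaf that had risen at least 16-fold in root, 21 were called higher in leaf at 1 h (14.8%), and their median log2 fold change there was 2.68. The leaf medians of the 8- to 16-fold, 4- to 8-fold and 2- to 4-fold root rises were 1.23, 0.84 and 0.47. Leaf WT 1 h replicate 3 differed from the other 2 leaf libraries of its group, with 42.0 CPM of Os03g0723400 against 3.29 and 3.65 CPM in the others. Without it the 4 medians, from the largest class down, were 2.05, 1.06, 0.87 and 0.50. Without it, 13 of 148 of the strongest root rises were called in leaf (8.78%, with 0.322% higher and 0.0965% lower over all tested), so this count falls by over 1.5 times. The root falls had smaller leaf medians, of -0.80 for the class of 16-fold or more (9 tested in leaf), -0.25 for 8- to 16-fold (23 tested), -0.36 for 4- to 8-fold (95 tested) and -0.18 for 2- to 4-fold (704 tested). Without leaf WT 1 h replicate 3 these medians were -0.83, -0.51, -0.34 and -0.17 in the same order, with 10, 27, 106 and 734 tested in leaf. At 72 h, 70 of the 142 strongest root rises were called higher in leaf (49.3%, with 15.0% over all tested), and at 6 h 15 of them (10.6%, with 15.6% over all tested). The 142 are the part of the 177 in this class that passed the filter over all leaf libraries. An identifier could pass it through the leaf group in which it was high, for example that of 72 h. The leaf shares are therefore not free of selection by leaf level. Root and leaf RNA were extracted by different methods, so tissue and method cannot be told apart in their levels.

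The difference between the root change and the leaf change at 1 h was tested over both tissues. It was more positive in root for 746 of 27323 identifiers (2.73%) and more negative for 581 (2.13%). Os08g0474000 on chromosome 8 had 17.3, 10.3 and 11.6 CPM at 1 h in root, against 2 reads at 0 h, a 645-fold rise whose 95% interval from read counting alone runs from 178 to 5330. In leaf it had 0.350, 1.93 and 1.65 CPM at 1 h, against 0.119, 0.0261 and 0.264 CPM at 0 h (edgeR adjusted p = 0.0323 for the difference). This call was lost in 6 of the 12 fits without 1 library, with an adjusted p of up to 0.209, reached without leaf WT 0 h replicate 3. In aoc root the same identifier had 1.07, 0.519 and 0.379 CPM at 1 h, under all 3 WT libraries, but the difference between the changes of the genotypes did not pass the test (log2 difference 4.32 ± 3.53; edgeR adjusted p = 1).

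Os05g0572000 on chromosome 5 had 13.4 ± 6.87 CPM at 1 h in root, against 0.0496 ± 0.0352 CPM at 0 h, and 9.34 ± 2.66 CPM at 1 h in leaf, against 2.98 ± 1.29 CPM at 0 h (SD, n = 3 each). Its log2 difference of 6.32 ± 1.63 (SE; edgeR adjusted p = 0.0171) goes with 0 h levels that did not overlap between the tissues and 1 h levels that did. The call was lost without root WT 0 h replicate 1 (adjusted p = 0.0541) or replicate 2 (adjusted p = 0.0593). At the other end, Os02g0776900 and Os08g0376500 had no read in leaf at 0 h. Os02g0776900 had 36 reads in leaf at 1 h, at least 12.1-fold more, while in root it had 7.13 ± 0.612 CPM at 1 h and 13.7 ± 1.61 CPM at 0 h (edgeR adjusted p = 0.00903 for the difference). Os08g0376500 had 76 reads in leaf at 1 h, at least 25.6-fold more, and in root 52.1 ± 18.6 CPM at 1 h and 17.0 ± 4.37 CPM at 0 h (edgeR adjusted p = 0.0315). Both averaged under 1 CPM in leaf at 1 h, and both calls were lost without 1 of the leaf libraries of 1 h (adjusted p = 0.0961 for Os02g0776900 without replicate 3 and 0.109 for Os08g0376500 without replicate 1). That of Os08g0376500 was lost in 7 of the 12 fits without 1 library.

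Levels in WT root also changed between 1 h and 6 h. Between 6 h and 1 h, 4830 identifiers were higher at 6 h (18.4%) and 4706 lower (18.0%), 1726 and 1527 of them at least 2-fold. This comparison shares the 1 h libraries with the one above, so only values are set beside each other. Os02g0685200 on chromosome 2 had 1.35 ± 0.671 CPM at 6 h, 110 ± 15.9 CPM at 1 h and 5.54 ± 0.736 CPM at 0 h (SD, n = 3 each), so its 6 h level was under that of 0 h (log2 -2.05 ± 0.63; edgeR adjusted p = 0.0235). Its log2 fold change was -6.36 ± 0.69 at 6 h over 1 h (SE; edgeR adjusted p = 1.69e-06) and 4.31 ± 0.61 at 1 h over 0 h (edgeR adjusted p = 2.37e-05). Os03g0623100 on chromosome 3 had 0.0879 ± 0.0736 CPM at 6 h and 8.67 ± 3.75 CPM at 1 h, which is -6.54 ± 0.83 in log2 (edgeR adjusted p = 9.44e-06), and 2 reads at 0 h.

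The 2 largest rises from 1 h to 6 h under the naming conditions were in transcripts near 0 at both 0 h and 1 h. Ranking by fold change favours identifiers that are near 0 at 1 h. Os01g0627800 on chromosome 1 had 109 ± 71.4 CPM at 6 h and 0.266 ± 0.185 CPM at 1 h, which is 8.47 ± 1.0 in log2 (SE; edgeR adjusted p = 4.39e-06), and 0.127 ± 0.0594 CPM at 0 h (SD, n = 3 each). Its change from 0 h to 1 h did not pass the test (log2 1.23 ± 1.54; edgeR adjusted p = 0.585). Os09g0344400 on chromosome 9 had 13.9 ± 9.14 CPM at 6 h and 0.0417 ± 0.0466 CPM at 1 h (log2 7.94 ± 1.19, edgeR adjusted p = 5.21e-05). At 0 h it had 0.0388 ± 0.0439 CPM.

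Calls at 1 h lay on all 12 chromosomes. Higher identifiers made up 14.2% of those tested on chromosome 12 and 14.9% on chromosome 11, the lowest shares, and 19.6% on chromosome 5 and 19.3% on chromosome 1, the highest. Lower identifiers ranged from 14.1% on chromosome 4 to 18.9% on chromosome 12. Neighbours were read from the order of the identifiers. The next tested identifier after a higher one was also higher in 1230 of 4589 cases (26.8%, with 17.5% over all tested), and the next after a lower one was also lower in 937 of 4333 (21.6%, with 16.5%). Such neighbours can include copies of 1 gene and overlapping genes, whose reads a counting tool can split, and neither the tool nor its strand setting is given in the sources used here.

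Runs of at least 5 neighbours in 1 direction numbered 23 for rises and 8 for falls. A run of 6 higher identifiers on chromosome 2 summed to 324 CPM at 1 h and 44.7 CPM at 0 h. Its log2 fold changes were 0.55 to 4.42 in WT, and all 6 were called higher in aoc, at 0.55 to 4.85. It includes Os02g0685200. A run of 5 on chromosome 5 summed to 85.7 CPM at 1 h and 12.0 CPM at 0 h, with log2 fold changes of 2.29 to 3.54 in WT, and all 5 were called higher in aoc. The longest run was one of 8 lower identifiers on chromosome 9, with a median log2 fold change of -0.60, of which 4 were called lower in aoc. Among the runs of rises, the part called higher in aoc went from all members down to 2 of 5, on chromosome 11. Over all tested identifiers, 18.1% were called higher in aoc at 1 h and 16.6% lower.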

How the data were processed

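RNA sequencing counts per gene identifier in 48 libraries were deposited by the authors as 1 table of whole-number counts. The submitters' processing notes list fastp, HISAT2, DESeq2 and the build IRGSP-1.0 and no version of a tool. The sources used here give neither the counting tool nor its strand setting or annotation release, so reads of overlapping, antisense or near-identical genes may be shared between identifiers. All 48 columns matched a sample and 0 were left over.

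Counts were fitted in R 4.3.3 with edgeR 4.0.16 (limma 3.58.1): the 24 root libraries together, filterByExpr, TMM scaling, the quasi-likelihood F test and Benjamini-Hochberg adjustment over all identifiers tested, called at an adjusted p under 0.05. The leaf libraries had their own fit, and root and leaf changes were compared in a fit over both tissues. CPM uses TMM-scaled totals. Intervals of ratios are exact 95% intervals of the read counts and cover counting error only. Each SE of a log2 fold change or difference is its absolute value divided by the square root of its F statistic. It is thus an approximation derived from the test and not an error estimated by the fit. For identifiers with few reads in a group it can be far off. The fit was tested on simulated data for the comparison of WT root at 1 h and 0 h with 25233 identifiers: 61 of 100 changed 2-fold and 94 of 100 changed 4-fold were recovered, and 4 unchanged ones were called. All changed ones averaged 1 CPM or more at 0 h, and no deviation shared by replicate number was simulated. In the real comparison 8924 of 26195 were called, so these shares need not hold there.

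No 2 libraries of a group agreed within sampling noise. Chi-square per degree of freedom was 21.7 to 61.5, and Pearson's r of log2 CPM across identifiers was 0.985 to 0.993. Same-numbered libraries deviated together: the correlations of their deviations were 0.444, 0.149 and 0.546 between 1 h and 0 h, 0.344, 0.121 and 0.498 between WT and aoc at 1 h, and 0.324, 0.233 and 0.371 between 6 h and 1 h. The numbers, taken from the titles, were therefore read as pairs. The main fits held no term for the pairs, so the printed tests leave them out. They entered only the replicate block among the alternatives.

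The named identifiers are, per comparison, the 2 largest rises and 2 largest falls among those called whose highest group averaged 5 CPM or more. Where 2 groups were compared, no overlap of their libraries was also required. The differences between 2 changes had no such condition. Between WT and aoc no more negative difference was called, and Os03g0431200 was added outside the rule. The comparison and the gene lists were chosen with earlier results of these data known. Of the 45 lists prepared, 0 members matched an identifier by name, and the gene altered in aoc was likewise not checked. Alternatives were RLE scaling, no filter on low counts, DESeq2 1.42.0, a replicate block, the compared groups alone, thinning of the deepest library and leaving out each library.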

Additional observations from a re-analysis of the deposited data

Results flagged for a closer look

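The 7 identifiers named for a difference between 2 changes at 1 h, a few of all those called, stand out because that difference itself passed its test. Between WT and aoc roots these were Os01g0834900 (edgeR adjusted p = 0.00194), Os11g0482901 (edgeR adjusted p = 0.00118) and Os03g0431200 (edgeR adjusted p = 0.00691), all with a more positive change in WT. Each kept its call in all 12 fits that left out 1 library, with adjusted p of 0.00145 to 0.0158, 0.00067 to 0.00904 and 0.00456 to 0.0449 in the same order. All 3 lost it with the compared groups alone (edgeR adjusted p = 0.0656, 0.0727 and 0.114 in the same order). Between WT root and WT leaf, the change was more positive in root for Os05g0572000 (edgeR adjusted p = 0.0171) and Os08g0474000 (edgeR adjusted p = 0.0323). It was more negative in root for Os02g0776900 (edgeR adjusted p = 0.00903) and Os08g0376500 (edgeR adjusted p = 0.0315). Os08g0376500 itself rose in root (log2 1.62 ± 0.31, edgeR adjusted p = 0.00047). Both had no read in leaf at 0 h and averaged under 1 CPM there at 1 h. Of the 12 fits without 1 library, the call was lost in 2 for Os05g0572000, 6 for Os08g0474000, 1 for Os02g0776900 and 7 for Os08g0376500.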

How the results depend on the processing

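The counts for WT root at 1 h against 0 h stayed within 1.5 times under every alternative, with 4459 to 5076 higher and 4017 to 4972 lower under other settings and 3842 to 4106 higher and 3377 to 3612 lower with 1 library left out. With the replicate block, 5022 were higher and 4972 lower, and in the comparison for which each identifier was named the block changed no call. Other tests printed for these identifiers were not refitted with the block. Those for 6 h against 1 h ranged over 4290 to 5442 higher and 4081 to 5278 lower under other settings, and over 3653 to 4222 and 3876 to 4215 with 1 library left out. The difference between WT and aoc was called more positive in 25 identifiers by DESeq2 and in 1 with the compared groups alone, and in 3 to 4 with 1 library left out. It was called more negative in 2 by DESeq2 and in 0 to 1 with 1 library left out. The difference between root and leaf was called more positive in root in 1188 by DESeq2, 1166 with the compared groups alone and 1454 without the leaf libraries of 72 h, an alternative chosen after seeing the data, and more negative in 994, 1264 and 1277 in the same order. With 1 library left out it was called more positive in 468 to 703 and more negative in 374 to 517, where fewer samples were fitted. The lowest were 468 and 374 without root WT 0 h replicate 2, and 376 were more negative without root WT 1 h replicate 1, 383 without root WT 1 h replicate 2 and 383 without leaf WT 0 h replicate 2. With the compared groups alone the call of Os08g0376500 was lost (adjusted p = 0.142). The cause of the other shifts was not tested. Of the identifiers at least 4-fold higher in WT, 78.9% to 88.4% were called higher in aoc over 18 alternatives added after seeing the data, and of those at least 4-fold lower, 65.5% to 81.9% were called lower. The standard error was largest for scarce transcripts.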
